A study of Mus musculus with 34 samples.

Results

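Hypothalamic neuropeptide genes are taken here as 10 genes whose peptides are made by neurons of the hypothalamus: Oxt, Avp, Pomc, Agrp, Hcrt, Pmch, Ghrh, Trh, Gnrh1 and Kiss1. The genes were chosen by name, with earlier results of these data known. Each was found on the array through the RefSeq accession of its probes. They were 10 of the 20145 genes that could be named on the array and had 11 of its 55681 probes. Kiss1 had 2 probes (A_55_P2069765 and A_55_P2069768) and the other 9 genes had 1 each. Brains came from 3 males of the strain C57BL/6J at the age of 3 days, untreated as far as the labels say. They were cut into slices of 5 μm and the slices were collected into fractions of 500 μm, 1 array being hybridised with the RNA of each fraction. Mouse 1 gave 15 coronal fractions, mouse 2 gave 8 horizontal fractions and mouse 3 gave 11 sagittal fractions, of which the outermost (1 and 11) pool 2 cut fractions each. No fraction had a replicate array, an axis cannot be told apart from its mouse, and the direction of the numbering is not given in the labels.

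The hypothalamus lies at the base of the forebrain on either side of the third ventricle and controls feeding, body temperature, sleep, water balance, reproduction and the pituitary gland. Its peptide genes are each strong in a small number of neurons gathered in particular nuclei. Oxytocin and vasopressin (Oxt, Avp) are made by large neurons of the paraventricular and supraoptic nuclei, orexin and melanin-concentrating hormone (Hcrt, Pmch) by neurons of the lateral hypothalamus, and the products of Pomc, Agrp, Ghrh and Kiss1 by neurons of the arcuate nucleus beside the midline. Thyrotropin-releasing hormone (Trh) is made in the paraventricular nucleus and in several other brain regions, and gonadotropin-releasing hormone (Gnrh1) by scattered neurons that extend forward from the preoptic area.

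For the members that followed each other most closely over the fractions, Oxt with Avp and Hcrt with Pmch, the 250 bases before the start listed in a RefSeq table of gene starts are shown so that the windows of each pair can be set side by side. They were taken from RefSeq on GRCm38.p6: chr2:130575919-130576168 on the plus strand for Oxt, chr2:130582589-130582838 on the minus strand for Avp, chr11:100762932-100763181 on the minus strand for Hcrt and chr10:88090822-88091071 on the plus strand for Pmch. The start used for Oxt lies inside the extent that RefSeq gives this gene, downstream of its outermost start. Capitals mark matches on either strand to 5 motifs. TATAAA is a TATA box, AGGTCA is the core site of nuclear receptors, CACGTG is the E-box of several helix-loop-helix factors, TAATTA is bound by homeodomain factors and TGACGT is the core of a cyclic AMP response element.
Oxt: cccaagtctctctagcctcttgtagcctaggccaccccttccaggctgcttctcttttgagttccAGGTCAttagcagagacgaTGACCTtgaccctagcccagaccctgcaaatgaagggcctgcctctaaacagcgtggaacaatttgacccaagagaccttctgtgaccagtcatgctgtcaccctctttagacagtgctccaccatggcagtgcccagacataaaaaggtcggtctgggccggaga
Avp: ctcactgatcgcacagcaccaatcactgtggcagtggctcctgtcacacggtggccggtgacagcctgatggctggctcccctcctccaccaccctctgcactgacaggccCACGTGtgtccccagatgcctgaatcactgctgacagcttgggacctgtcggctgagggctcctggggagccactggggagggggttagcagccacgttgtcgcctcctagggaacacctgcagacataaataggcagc
Hcrt: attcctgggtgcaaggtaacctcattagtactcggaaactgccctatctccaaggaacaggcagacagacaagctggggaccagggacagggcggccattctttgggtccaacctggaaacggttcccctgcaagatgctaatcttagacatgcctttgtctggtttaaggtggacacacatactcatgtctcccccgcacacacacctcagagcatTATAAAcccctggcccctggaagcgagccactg
Pmch: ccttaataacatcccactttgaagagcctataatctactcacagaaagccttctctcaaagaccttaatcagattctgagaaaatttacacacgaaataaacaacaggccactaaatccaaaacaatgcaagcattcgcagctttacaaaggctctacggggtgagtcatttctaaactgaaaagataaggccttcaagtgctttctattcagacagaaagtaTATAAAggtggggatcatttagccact
Oxt and Avp are neighbours on chromosome 2 and are read on opposite strands. The Oxt window held 2 matches to AGGTCA, once as the motif and once as its reverse complement TGACCT, while the Avp window held 1 CACGTG and no AGGTCA. The Hcrt and Pmch windows each held 1 TATAAA close to the start and none of the other motifs. A window was found for 8 of the 10 members, with 9 windows in all because Ghrh had 2 starts. AGGTCA was found in 6 of those 9 windows, both Ghrh windows among them, and in 14% of the 32851 windows of all genes. TATAAA was found in 4 of the 9 and in 12.4% of all. CACGTG was found in 1 of the 9 and in 6.02% of all windows, and TAATTA in 2 of the 9 and in 4.84% of all. TGACGT was found in 0 of the 9 and in 6.47% of all. The motifs CACGTG and also TAATTA are their own reverse complements, and no matches in the members' windows shared a base.

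Values are log2 signals less the 75th percentile of the array, so that a value of 0 means a spot as bright as that percentile. Probes bind with different strength, so that a value can be compared between fractions for the same probe and not between genes. A spot was called detected where the scanner software marked it well above background, and a probe entered the tests if each of the 3 series held 1 or more fractions with detection, which was true for all 10 members and for 34186 probes in all. Between 29598 and 37091 spots were detected on an array, none was saturated, and the SD among repeat spots on the same array was 0.06 to 0.10. The arrays lay on 5 slides. Slide 2 held coronal fractions 1 to 8, slide 3 coronal fractions 9 to 11 and 13 to 15, slide 1 horizontal fractions 1, 2 and 5 to 8, and slide 4 sagittal fractions 2 to 9. Slide 5 held coronal fraction 12, horizontal fractions 3 and 4 and sagittal fractions 10 and 11, and sagittal fraction 1 lay on slide 3. The hindbrain genes Hoxa5, Hoxb5 and Hoxc4 were highest in coronal fraction 2. Of the thalamic genes, Gbx2 and Tcf7l2 were highest in fraction 8 and Rora in fraction 1. The olfactory bulb genes Tbx21, Eomes and Doc2g were highest in fraction 15.

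The SD of the members over the 34 fractions had a median of 1.55 on the log2 scale, against 0.31 for all tested probes. Of the 10 members, 8 were highest in coronal fractions 7 to 9, as were 12.5% of all tested probes. All 10 were highest in horizontal fraction 7 or 8, as were 22.7% of all probes, and 8 of them in fraction 8 itself, as were 11.4%. In the sagittal series all 10 were highest between fractions 4 and 8, as were 35.5% of all probes. Taken over the 3 axes at once, 8 of the 10 members fell in these 3 windows and 1.35% of all probes did. The exceptions were Gnrh1 and Trh, which were highest in coronal fractions 11 and 15. The horizontal and sagittal windows span the members' own highest fractions, so all 10 fall in them by construction. The window counts are a description and not a test. In dissected tissue of this kind, fewer cells that make a peptide and less RNA in each of them cannot be told apart.

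**Figure D1:**
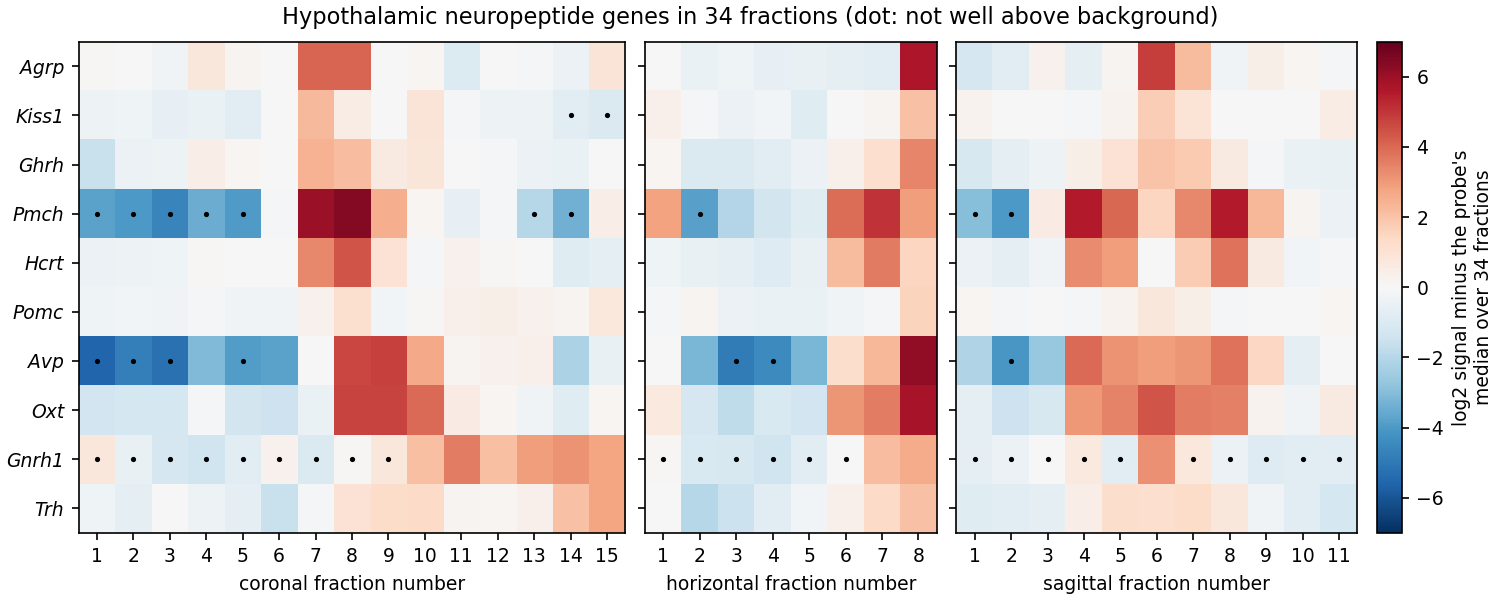
Each row is a member (main probe) and each column a fraction of the coronal, horizontal or sagittal series. Colour gives the log2 normalized signal less that probe's median over the 34 fractions, and a black dot marks a fraction in which the probe was not well above background. Warm columns stand at coronal fractions 7 to 10, at horizontal fractions 6 to 8 and at sagittal fractions 4 to 8.

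Oxt (probe A_55_P2161903) was detected in all 34 fractions. In the coronal series it ranged from -3.78 to 2.41 with a median of -2.62, and the fractions above 0 were 8 (2.38), 9 (2.41) and 10 (1.61). In horizontal fractions 6, 7 and 8 it was 0.75, 1.22 and 3.42 and lay between -4.11 and -1.68 in the other 5. In the sagittal series it was 0.68, 1.14, 2.08, 1.26 and 1.21 in fractions 4 to 8 and at most -1.71 outside them. The high fractions were therefore set off from all others by more than 2 log2 units on each axis. The highest fraction was 32.7-fold above the median fraction in the coronal series, 62.5-fold in the horizontal and 13.8-fold in the sagittal series.

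Avp (probe A_51_P136508), the neighbour of Oxt, was detected in 27 of the 34 fractions. In the coronal series it was -1.03 in fraction 7, 3.62 in fraction 8, 3.72 in fraction 9 and 1.61 in fraction 10, and not well above background in fractions 1, 2, 3 and 5. The value in fraction 9 was at least 455-fold above the mean log2 value of those 4 fractions. In that mean the lowest detected signal of each array served as the floor. In horizontal fraction 8 it reached 5.16, against 1.30 in fraction 7 and -5.97 in fraction 3. Fraction 8 held 89.5% of the summed linear signal of the horizontal series. It was at least 1458-fold above the mean, taken in the same way, of the 2 fractions without detection. Across the sagittal series Avp was 2.94 in fraction 4 and 2.74 in fraction 8, with 2.09, 1.87 and 2.04 between them. Oxt was highest in the middle of these fractions and Avp at their edges, although the Avp values of fractions 4 to 8 differed by less than its SD of 1.83 between fractions lying equally far from the middle.

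Hcrt (probe A_55_P2142341), which encodes the orexins, was detected in all 34 fractions. It was 2.07 in coronal fraction 7, 3.13 in fraction 8 and at most -0.28 in the other 13. In the horizontal series it was highest in fraction 7 (2.35) and not in fraction 8 (0.23). In the sagittal series it was 2.02, 1.62, -1.27, 0.51 and 2.54 in fractions 4 to 8, so that the middle fraction was about as low as the outer fractions 3 (-1.53) and 11 (-1.41). Pmch (probe A_52_P418814), which encodes melanin-concentrating hormone, was detected in 24 fractions. It was 3.10 and 3.46 in coronal fractions 7 and 8, and not well above background in fractions 1 to 5, 13 and 14. Its value in fraction 8 was at least 335-fold above the mean log2 value of those 7 fractions, with the floor used for Avp. In the horizontal series it was 0.95, 2.12 and -0.06 in fractions 6 to 8, again highest in fraction 7. In the sagittal series it was 2.56, 1.04, -1.45, 0.42 and 2.57 in fractions 4 to 8. Both genes were thus lower in sagittal fraction 6 than in fractions 4, 5, 7 and 8. The spread between fractions equally far from the middle did not separate Pmch in fraction 6 from its highest fraction, whereas it did for Hcrt. Avp was lower in fraction 6 by less than that spread.

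**Figure D2:**
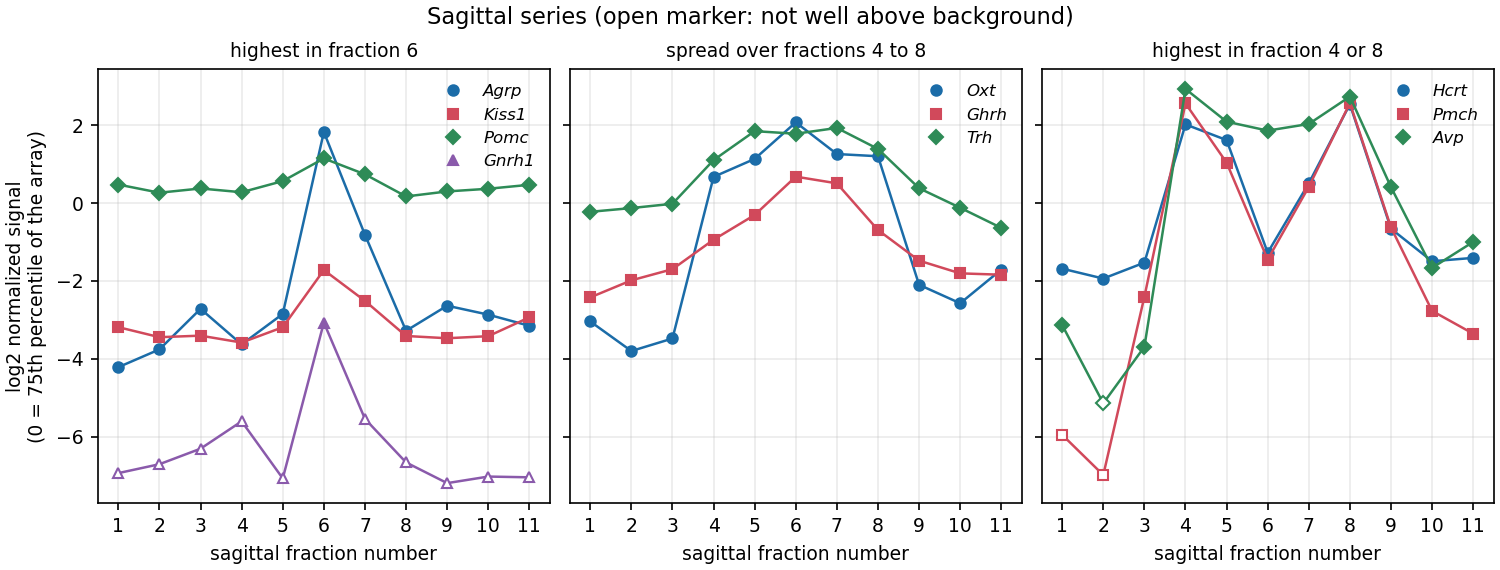
Log2 normalized signal of the main probe of each member (vertical axis) against sagittal fraction number, with open markers where the probe was not well above background. Members were placed in panels by their highest fractions, and heights of different genes cannot be compared. Agrp, Kiss1, Pomc and Gnrh1 stand out in fraction 6, while Hcrt and Pmch are at -1.27 and -1.45 there.

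Agrp (probe A_55_P2049717) encodes a peptide of the arcuate nucleus that drives feeding, and Pomc (probe A_52_P671543) encodes the precursor of the melanocortins, which restrain it. Agrp was 1.06 in each of coronal fractions 7 and 8 and at most -2.11 in the other 13. In the horizontal series it was 2.63 in fraction 8 and at most -3.01 in the other 7, and in the sagittal series 1.83 in fraction 6, -0.81 in fraction 7 and at most -2.64 elsewhere. It was the most confined member along these 2 axes, with 90.8% of the summed horizontal signal in fraction 8 and 69.2% of the summed sagittal signal in fraction 6. Pomc was also highest in coronal fraction 8 (1.43), horizontal fraction 8 (1.89) and sagittal fraction 6 (1.15). Its range was narrow, since its medians over the 3 series were 0.43, 0.13 and 0.38, and its highest fraction was 1.99-fold, 3.40-fold and 1.71-fold above the median fraction. Pomc stayed above 0 in all 15 coronal fractions and was 1.08 in fraction 15.

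Ghrh (probe A_55_P1985005), which encodes the hormone that releases growth hormone, was detected in all 34 fractions. It was 1.12 and 0.81 in coronal fractions 7 and 8, 2.11 in horizontal fraction 8 against -0.14 in fraction 7, and 0.68 and 0.51 in sagittal fractions 6 and 7. Its medians over the 3 series were -1.30, -1.46 and -1.48. Kiss1, which encodes kisspeptin, a regulator of puberty, was read on its main probe (A_55_P2069765), which was detected in 32 fractions. It was -1.22 in coronal fraction 7 against at most -2.57 elsewhere, -1.42 in horizontal fraction 8 against at most -3.09 elsewhere, and -1.72 in sagittal fraction 6 against at most -2.51 elsewhere. The other Kiss1 probe was detected in 15 fractions and was highest in the same 3 fractions (-2.92, -2.97 and -3.20), with an r of 0.86 between the 2 probes over the 34 fractions. The 4 arcuate genes therefore shared horizontal fraction 8 and sagittal fraction 6, and in the coronal series they were highest in fraction 7 or 8.

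Some genes of the pituitary gland, which hangs below the hypothalamus, were detected in these fractions. Of 13 pituitary genes, 7 were detected in each of coronal fractions 7 and 8, horizontal fraction 8 and sagittal fraction 6, and between 1 and 6 in the other 30 fractions. Of all 59305 spots on an array, 34681, 35100, 34706 and 34674 were detected in these 4 fractions. Lhb, 1 of the 7, was detected in all 34 fractions. Cga, the common subunit of the glycoprotein hormones, was detected in these 4 fractions and no other, at -0.76, -1.36, 0.44 and -0.22. Tshb, the thyrotropin subunit, was detected in 3 of them and in coronal fraction 2. Other genes of the list were highest elsewhere, Lhx3 in coronal fraction 4 and Pitx1 and Pax7 in fraction 5. Of the 8 that were detected in each series, 2 (Cga and Tshb) were highest within all 3 windows, as were 1.35% of all tested probes. Both met the detection filter of the horizontal and sagittal series only through fractions 8 and 6, where they were high, so this count supports nothing. The summed linear signal of the 13 genes was 1.18 to 2.54 in the 4 fractions and 0.273 to 2.74 in the others. Gh, which defines somatotrophs, and Tbx19, which defines the pituitary cells that make Pomc, were not well above background in any of the 34 fractions, and Prl, Fshb and Pou1f1 were in 1 fraction each. The part of pituitary tissue in the peaks of Pomc, Agrp, Ghrh and Kiss1 was not tested.

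Trh (probe A_55_P2071349) was detected in all 34 fractions and had its coronal maximum at the end of the series, with 2.67 in fraction 14 and 3.37 in fraction 15, where the olfactory bulb genes were highest too. A lower maximum stood at fractions 8 to 10 (1.65, 1.93 and 1.94), where Oxt and Avp were high, and the other 10 fractions were at most 1.00. In the horizontal series each fraction was higher than the one before from fraction 2 (-1.37) to fraction 8 (2.69), and in the sagittal series it was 1.11 to 1.93 in fractions 4 to 8. Gnrh1 (probe A_55_P2110860) was dim and was detected in 9 fractions, which were coronal fractions 10 to 15, horizontal fractions 7 and 8, and sagittal fraction 6. Its values there were -2.72 in coronal fraction 11 and -4.17 to -3.16 in the other 5 coronal fractions, -4.14 and -3.68 in the horizontal pair, and -3.07 in the sagittal fraction. In coronal fraction 11, horizontal fraction 8 and sagittal fraction 6, the signal was at least 5.58-fold, 2.80-fold and 4.04-fold above a mean of undetected fractions. That mean was taken over the log2 values of the same series, with the floor used for Avp. Gnrh1 was therefore not detected in coronal fractions 7 to 9, where 8 other members were highest.

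**Figure D3:**
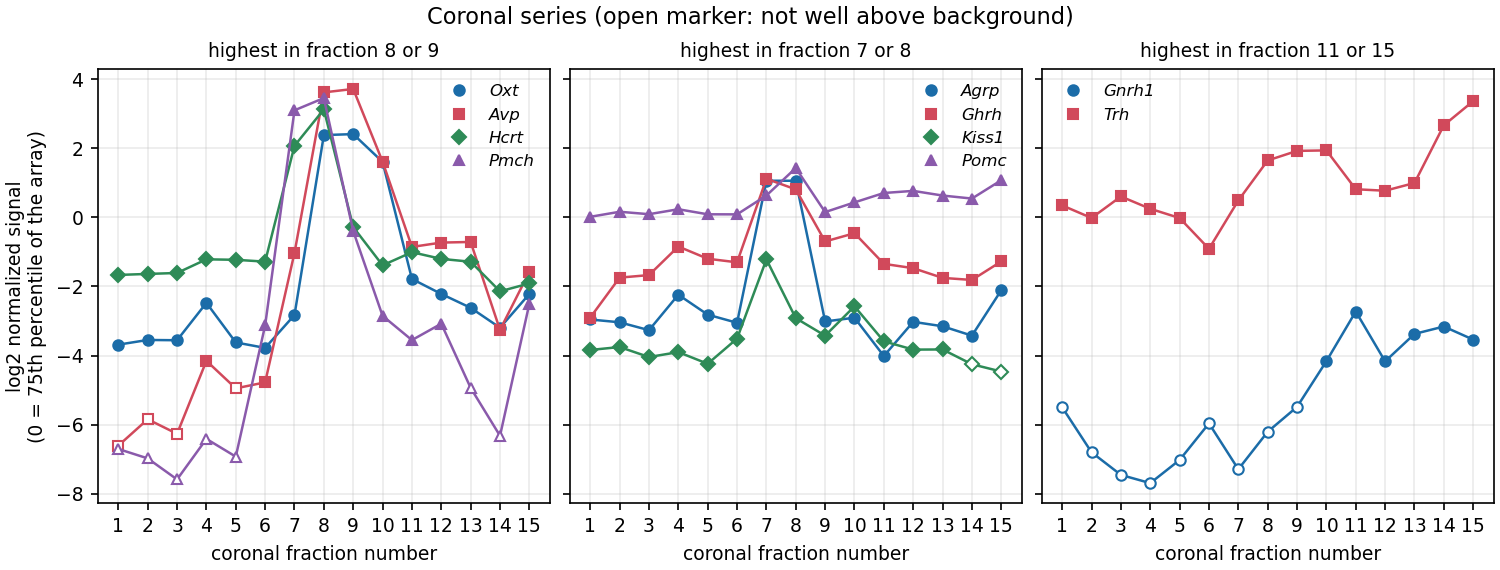
Log2 normalized signal of the main probe of each member (vertical axis) against coronal fraction number, with open markers where the probe was not well above background. Panels group members by their highest fraction, and heights of different genes cannot be compared. Oxt and Avp keep high values through fraction 10, Hcrt and Pmch are highest in fractions 7 and 8, and Trh and Gnrh1 are high towards fraction 15.

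Ordered by the highest coronal fraction, the members ran Agrp, Kiss1 and Ghrh (fraction 7), Pmch, Hcrt and Pomc (8), Avp and Oxt (9), Gnrh1 (11) and Trh (15). Within a fraction the order follows the signal-weighted mean fraction, which was 7.61 for Agrp, 7.72 for Pmch, 8.91 for Avp, 8.94 for Oxt and 11.8 for Gnrh1. In the horizontal series Pmch and Hcrt came first (fraction 7) and the other 8 shared fraction 8. In the sagittal series the order was Avp (fraction 4), then Gnrh1, Pomc, Agrp, Oxt, Ghrh and Kiss1 (6), Trh (7), and Pmch and Hcrt (8). With no replicate array, the spread was taken from the 5 pairs of sagittal fractions that lie equally far from fraction 6, which mixes array error with any difference between the sides. It comes from mouse 3 alone and does not measure array or slide error in the coronal and horizontal series. Their SD ran from 0.08 (Pomc) to 1.83 (Avp) with a median of 0.58 over the members, against 0.15 over all probes. A fraction was read as lower than the highest where it lay below by more than 2 SD of a difference. By that measure the coronal neighbours Agrp and Ghrh (fractions 7 and 8 each), Pmch (7 to 9), Hcrt (7 and 8) and Avp (7 to 13) cannot be put in order. Kiss1 (fraction 7 alone), Pomc (8 alone), Gnrh1 (10 to 15) and Trh (15 alone) did not overlap one another except at fraction 15. The Pomc SD lay within the range of the SD among repeat spots on the same array (0.06 to 0.10), so its separation rests on a small spread. Oxt (8 to 10) overlapped Agrp, Ghrh, Pmch, Hcrt, Pomc and Avp at fraction 8 and Gnrh1 at fraction 10. In the sagittal series Avp was not separated between fractions 4 and 11, nor Pmch between fractions 4 and 9, while Hcrt was separated from fractions 6 and 7 and Agrp, Kiss1, Pomc and Gnrh1 were each separated in fraction 6 from all other fractions.

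The sagittal test asked whether signal changed from the middle of the brain outwards, with fraction 6 taken as the middle and the slope on the distance from it fitted by limma for all 34186 probes. Of the 10 members, 7 changed and all 7 were lower with distance. Among all probes 28.3% changed with distance and 9.97% were lower. The slope, in log2 units per fraction, had a median of -0.57 over the members and 0.0142 over all probes. It was -0.55 ± 0.05 (SE) for Trh (limma adjusted p = 0.000151), -0.58 ± 0.06 for Ghrh (0.000205), -1.12 ± 0.21 for Oxt (0.00339) and -1.25 ± 0.35 for Avp (0.0213). Agrp (-0.72 ± 0.21, limma adjusted p = 0.0287), Pmch (-1.30 ± 0.41, 0.0364) and Gnrh1 (-0.49 ± 0.16, 0.0414) were closer to the threshold. Gnrh1 met the detection filter of this series only through fraction 6, where it was high, so its call supports nothing, and its slope was -0.01 (limma adjusted p = 0.832) after the normexp background correction. Of the other 9 members 6 passed. Hcrt (-0.55 ± 0.25, limma adjusted p = 0.125), Pomc (-0.09 ± 0.04, 0.138) and Kiss1 (-0.17 ± 0.09, 0.157) did not pass. Within slide 4 alone, and with slide as a block, 3 members (Ghrh, Oxt and Trh) passed, where 5.7% and 6.27% of all probes did. The same 3 members were left without fraction 1, and they were left together with Avp without fraction 7. Of all 34186 probes, 6491 passed without fraction 1 and 8036 without fraction 7.

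With distance entered as 6 separate levels, 7 members passed, where 16.1% of all probes did. These were Trh (limma adjusted p = 0.00518), Hcrt (0.0104), Ghrh (0.0134), Oxt (0.0136), Pomc (0.0183), Kiss1 (0.0294) and Agrp (0.0344). The other Kiss1 probe did not pass (limma adjusted p = 0.314). The value of fraction 6 less the mean of fractions 4 and 8, a comparison chosen after the values had been seen, is given without a test. It was 5.29 for Agrp, 1.78 for Kiss1, 1.50 for Ghrh, 1.14 for Oxt, 0.92 for Pomc and 0.53 for Trh. It was below 0 for Avp (-0.97), Hcrt (-3.56) and Pmch (-4.02). For Gnrh1 it was 3.07, with fractions 4 and 8 not well above background.

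**Figure D4:**
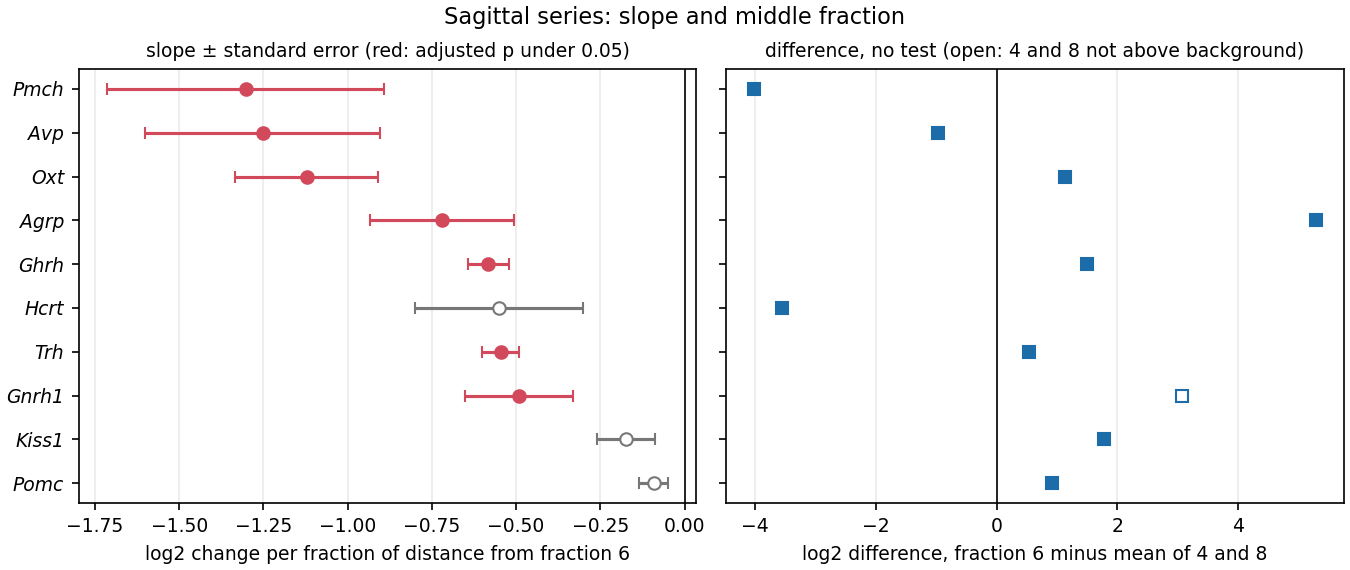
Left, slope of the log2 signal on the distance from sagittal fraction 6 with its standard error for each member. Filled red points have a limma adjusted p under 0.05. Right, log2 value of fraction 6 less the mean of fractions 4 and 8, without a test, with an open marker for Gnrh1, which was not well above background in fractions 4 and 8. All 10 slopes lie below 0, whereas the differences run from -4.02 (Pmch) to 5.29 (Agrp).

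The coronal test asked whether signal depended smoothly on the fraction number, by a spline fitted to the 15 fractions. Of the 10 members 8 passed, and so did 60.6% of all probes. The fitted range, the highest less the lowest fitted log2 value, had a median of 3.54 over the members and 0.813 over all probes. It was 9.95 for Pmch (limma adjusted p = 0.000484), 8.90 for Avp (0.000365), 5.23 for Oxt (0.0186), 4.13 for Gnrh1 (0.000115) and 3.53 for Trh (0.00618). Hcrt had 3.39 (limma adjusted p = 0.0194), Ghrh 2.83 (0.00407) and Kiss1 1.87 (0.0428). Gnrh1 met the detection filter of this series only through fractions 10 to 15, where it was high, so its call supports nothing. Kiss1 passed in 5 of the 15 fits without 1 fraction and had a range of 0.68 (limma adjusted p = 0.284) after the normexp background correction. Agrp, with 3.55 (limma adjusted p = 0.0596), and Pomc, with 0.92 (0.0925), did not pass. The line between slides 2 and 3 falls between coronal fractions 8 and 9. Within fractions 1 to 8 alone, 5 members passed (Avp, Hcrt, Oxt, Pmch and Pomc), where 21.5% of all probes did. With slide as a block 6 passed (37.1% of all probes), among them Agrp (limma adjusted p = 0.0166) and Pomc (0.0232), while Oxt (0.0545), Gnrh1 (0.0732), Kiss1 (0.0801) and Trh (0.143) did not.

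The same test over the 8 horizontal fractions was passed by 4 members, Avp, Ghrh, Gnrh1 and Oxt, and by 1.72% of all probes. Their fitted ranges were 10.9 (limma adjusted p = 0.0206), 4.17 (0.0250), 4.26 (0.0282) and 7.72 (0.0401). Gnrh1 met the detection filter of this series only through fractions 7 and 8, where it was high, so its call supports nothing. All 10 members had a p under 0.05 before adjustment by limma, as had 22.9% of all probes, and the median fitted range was 4.22 over the members and 0.579 over all probes. With slide as a block none of the 10 passed, with limma adjusted p values from 0.063 (Pmch) to 0.325 (Hcrt), while 9 had a p under 0.05 before adjustment, as had 18.8% of all probes. Of all probes 0.00585% passed that fit. Without fraction 1 the count was again 4 (Avp, Ghrh, Gnrh1 and Trh), where 1.34% of all probes passed. Leaving out fraction 2, 3, 4, 7 or 8 brought the count to 0, where 2, 0, 0, 1 and 1 of all 34186 probes passed. Leaving out fraction 6 brought it to 1 (Avp; 2 of all probes) and leaving out fraction 5 to 2 (Avp and Oxt; 24 of all probes).

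**Figure D5:**
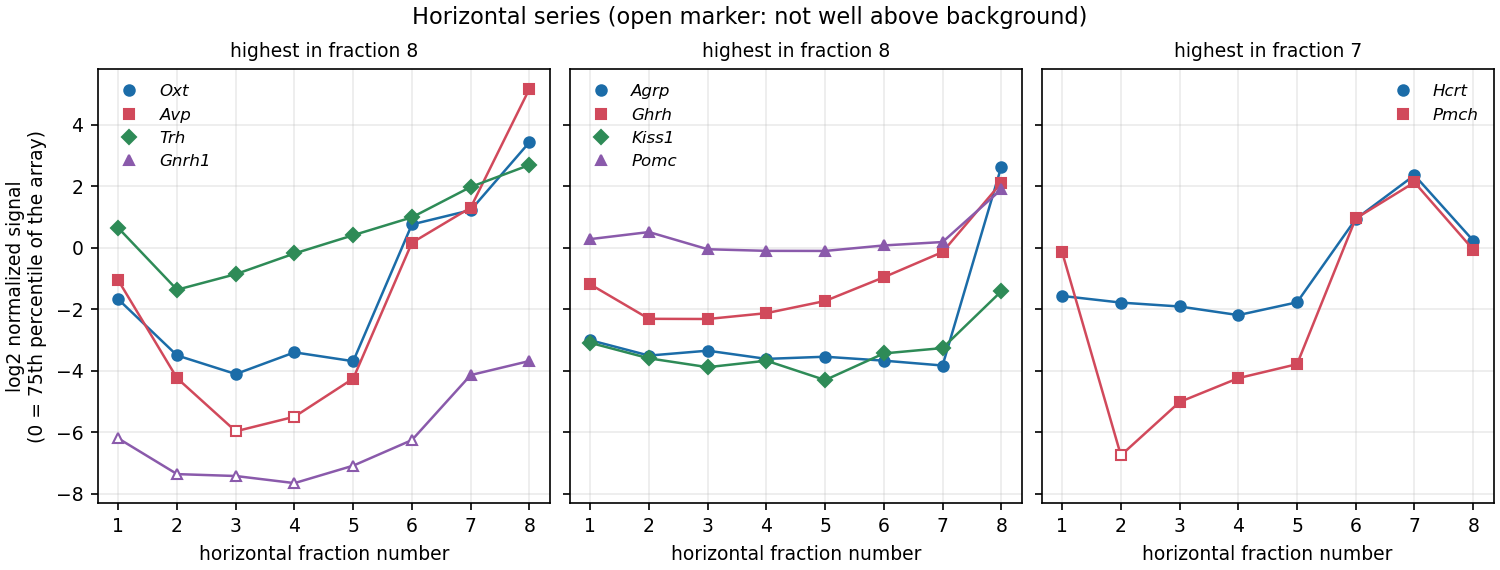
Log2 normalized signal of the main probe of each member (vertical axis) against horizontal fraction number, with open markers where the probe was not well above background. Heights of different genes cannot be compared. Fraction 8 is the highest for 8 members, fraction 7 for Hcrt and Pmch, and several members are higher in fraction 1 than in fraction 2.

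Horizontal fraction 1 lies at the end of the series away from fraction 8, yet 6 of the 10 members were higher there than the mean of fractions 2 and 3 by more than 1 on the log2 scale, as were 2.85% of all probes. The median difference was 1.16 over the members and -0.01 over all probes. Pmch was -0.15 in fraction 1, not well above background in fraction 2 (-6.75) and -5.02 in fraction 3, a difference of 5.73. Avp was -1.07, against -4.24 and -5.97 (difference 4.04), and Oxt was -1.68, against -3.50 and -4.11 (2.12). Trh (1.75), Gnrh1 (1.19) and Ghrh (1.12) followed, although Gnrh1 was not well above background in fraction 1. Agrp (0.42), Hcrt (0.28), Kiss1 (0.65) and Pomc (0.05) differed by less than 1. The rise was not particular to the members, as it was 6.20 for Hoxa5, 6.81 for Hoxb5 and 6.48 for Hoxc4, the hindbrain genes. Of the thalamic genes Gbx2 rose too (2.32), while Tcf7l2 (-1.63) and Rora (-0.34) did not. Fraction 1 had no replicate, and this comparison carries no test.

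The sagittal values of Avp, Pmch and Oxt differed between fractions 3 and 9. Fraction 9 exceeded its counterpart, fraction 3, on the same slide by 4.11 for Avp, 1.78 for Pmch and 1.38 for Oxt on the log2 scale. A difference of more than 1 was found for these 3 of the 10 members and for 1.37% of all probes, and the difference was 0.87 for Hcrt. Fraction 10 exceeded fraction 2, which lay on another slide, by 1.23 for Oxt, and Avp and Pmch were not well above background in fraction 2. Fraction 8 less fraction 4 was -0.20 for Avp, 0.01 for Pmch, 0.53 for Oxt and 0.52 for Hcrt. Fraction 7 less fraction 5 was 2.04 for Agrp, 0.81 for Ghrh and -1.11 for Hcrt. With 1 mouse cut along this axis, no test of the sides was made.

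The genes most like each member were found by Pearson's r over the 34 fractions, which are not independent because neighbouring fractions are adjoining tissue of 1 mouse. Oxt and Avp were each other's closest gene (r = 0.93), with an r of 0.90 along the coronal, 0.98 along the horizontal and 0.93 along the sagittal axis, 0.92 to 0.98 within slides 1 to 4 and 0.91 after the 2 fractions with the most extreme Oxt values were removed. After Avp, Oxt was most like Six6 (0.84) and Gsc (0.78), which were detected in 11 and 6 fractions. Avp was also like Fezf1 and Pmch (0.82 each), although within the sagittal series its r was 0.34 with Fezf1 and 0.91 with Pmch. Pmch was closest to Hcrt (r = 0.85), with 0.86, 0.84 and 0.89 within the 3 series and 0.72 to 0.96 within slides 1 to 4, followed by Avp and by Fezf1 (0.79). Within the sagittal series the r of Pmch with Fezf1 was 0.50. Hcrt was closest to Npw (0.87), the gene of neuropeptide W, followed by Pmch and Ankrd2 (0.71).

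Agrp was most like Cga (r = 0.93), which was detected in 4 fractions, followed by Ghrh (0.82) and Pomc (0.76). This r rested on few fractions, as the rank correlation was 0.47 and r was 0.15 within slide 3, whose fractions held no peak of either gene. Pomc was most like Agrp, Cga (0.76 each) and Men1 (0.72), although its r with Men1 was -0.18 within the sagittal series. Kiss1 was like Cga (0.77) and Ghrh (0.76), and Ghrh was most like Vgll2 (0.84), with Six6 also among its closest genes (0.83). Trh followed Kcnk13 (0.85), a potassium channel gene, Samd3 (0.84) and Krt90 (0.82). Gnrh1 followed Kcnk13 (0.78), Insrr (0.73) and Gstm7 (0.72), although its r with Kcnk13 was 0.36 within the sagittal series. At the threshold of 0.85, Hcrt had 2 similarly expressed probes, Oxt, Avp, Agrp, Pmch, Trh and Kiss1 had 1 each, which for Kiss1 was its own other probe, and Pomc, Ghrh and Gnrh1 had none.

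Of 14 genes for receptors of the 10 peptides, 9 were detected in each series. Of these, 1 was highest within the 3 windows in which 8 of the 10 ligands were, as were 1.35% of all probes. In the sagittal test 3 were lower with distance, Hcrtr1, Mc3r and Mchr1, at slopes of -0.56, -0.51 and -0.16, and none was higher, where 9.97% of all probes were lower. In the coronal test 8 of the 9 passed, where 60.6% of all probes did, and in the horizontal test by limma none did, with 8 at a p under 0.05 before adjustment (22.9% of all probes). Hcrtr1, an orexin receptor, was highest in coronal fraction 5 (1.69) and Avpr1a, a vasopressin receptor, in fraction 9 (-1.08), with fitted coronal ranges of 3.51 and 3.24. Mc4r, a melanocortin receptor, was highest in coronal fraction 13 (1.38). The gene within all 3 windows was Mc3r, another melanocortin receptor (coronal fraction 8, horizontal 8 and sagittal 5). Hcrtr2 and Ghrhr were not well above background in any fraction.

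Of 18 genes for transcription factors that shape the hypothalamus, 15 were detected in each series, and 12 of these were lower with sagittal distance and none higher, with a median slope of -0.61 and 9.97% of all probes lower. In the coronal test 9 passed (60.6% of all probes) and in the horizontal test 5 passed (1.72%). Fraction 6 was the highest sagittal fraction of 9 of them and of 9.97% of all probes, and 6 were highest within all 3 windows, as were 1.35% of all probes. Fezf1 was highest in coronal fraction 8 (0.24), horizontal fraction 8 (0.52) and sagittal fraction 7 (-1.24), and Nkx2-1 in coronal fraction 10 (-0.63), horizontal fraction 7 (-0.34) and sagittal fraction 6 (-1.09). Hmx3 was highest in coronal fraction 10 (-1.08), horizontal fraction 7 (-1.09) and sagittal fraction 6 (-0.96). Foxb1, a gene of the mammillary region, was highest in coronal fraction 6 (1.89). In the first horizontal fraction, 6 of the 15 lay above the mean of fractions 2 and 3 by more than 1, as did 2.85% of all probes. Among them were Hmx3 (5.22), Fezf1 (5.10), Six6 (3.51) and Nkx2-1 (3.39). Sim1 and Otp are known to be needed for the neurons that make Oxt and Avp. Sim1 was detected in 1 fraction, and Otp and Bsx in none.

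All 10 genes for cutting, finishing and storing peptides were detected in each series, with a median fitted coronal range of 0.96 against 3.54 for the members. Of these, 6 were lower with sagittal distance (9.97% of all probes), with a median slope of -0.11. The coronal test was passed by 9 (60.6% of all probes) and the horizontal test by limma by none, where 4 had a p under 0.05 before adjustment (22.9% of all probes). Scg2, a secretogranin, had a coronal range of 1.64 and was highest in sagittal fraction 6 (5.41), and Pcsk2, a prohormone convertase, had a range of 2.04 and was highest in sagittal fraction 1 (4.49). Pcsk1, another convertase, had a slope of -0.24 (limma adjusted p = 0.0039).

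Of 12 other genes of hypothalamic peptide neurons, 11 were detected in each series. In the sagittal test 7 were lower with distance (9.97% of all probes) and 1, Npy, was higher (0.39, limma adjusted p = 0.000436). Npy, which arcuate neurons make together with Agrp, was highest in coronal fraction 15 (6.11) and in sagittal fraction 1 (5.54) and so did not share the sagittal or coronal maximum of Agrp, while both were highest in horizontal fraction 8. Npvf, the gene of an RFamide peptide, was highest in coronal fraction 7 (0.02), horizontal fraction 7 (-0.96) and sagittal fraction 6 (-0.88) and had a slope of -0.78 (limma adjusted p = 0.0014). Hdc, which makes histamine, was highest in coronal fraction 10 (0.74), horizontal fraction 5 (0.27) and sagittal fraction 6 (0.48). Qrfp was not well above background in any fraction. In the coronal test 8 of the 11 passed (60.6% of all probes) and in the horizontal test by limma none did, with 8 at a p under 0.05 before adjustment (22.9% of all probes).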

How the data were processed

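The authors prepared total RNA from each fraction, labelled it with Cy3, hybridised 1 single-colour Agilent array per fraction and read the scans with Agilent Feature Extraction (version 10.10.1.1 per the file headers). The deposited files of single arrays give intensity as a processed signal, from which the background was subtracted, and as the median brightness of spot and background, with no scaling between arrays. A deposited log2 table covers 43199 probes. Of its values, 99.9% differed by at most 0.02 from the log2 of the processed signal after 1 constant per array was taken off, and that constant was within 0.012 of the log2 75th percentile. No per-sample column was left out.

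Here the spots of a probe were averaged, control and outlier spots were left out, and log2 values less the array's 75th percentile were used. The log2 of that percentile ran from 8.07 to 9.18. The number of arrays limits the precision. A RefSeq table of GRCm38.p6 gave 26582 probes a gene symbol and 29099 had none. Probes were matched to it by accession and not by coordinates. The main probe of a gene had the highest median. limma 3.58.1 in R 4.3.3 (lmFit, eBayes, Benjamini-Hochberg over 34186 probes, adjusted p under 0.05) tested the slope on the distance from sagittal fraction 6 and natural splines of the coronal (4 degrees of freedom) and horizontal (3) fraction number. The fractions of 1 mouse stand in for replicates, so these p values compare positions within 1 mouse. Other work used Python 3.11.15, numpy 2.4.6 and pandas 2.3.3. Tested on simulated data of 34186 probes with 200 planted peaks, 100 of each of 2 heights, the sagittal test found 90 of height 2 and 94 of height 4, the coronal test 56 and 82, and the horizontal test 23 and 16, with 10, 10 and 3 false calls.

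The genes named were all members, up to 4 genes of each list with the largest SD over the fractions, and the 3 genes most like each member. Of the similar genes, 1 is not reported here. Other genes were named after their values were seen, such as those that marked a receptor, a pituitary gene or a gene never detected. Members, lists and tests were chosen with earlier results of these data known. The alternatives were other scalings, background corrections, filters, models and slide terms, and leaving out single fractions. Of these, the tests within a slide, the linear horizontal trend without fraction 1 and the horizontal order without fraction 1 were added after seeing the data.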

Additional observations from a re-analysis of the deposited data

Results flagged for a closer look

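In the horizontal series 3 members had 1 fraction far from the other 7. Fraction 8 was the highest for each, and its gap to the next fraction was a share of 0.873 of the whole range for Agrp (2.63 in fraction 8), 0.693 for Pomc (1.89) and 0.581 for Kiss1 (-1.42). The search covered 20 groups of values, namely the 8 horizontal fractions and the 5 differences between sagittal counterparts for each member, and chance marks about 1 in 20. None of the 10 groups of sagittal differences was marked. Of the horizontal fractions, the same one held the most detected pituitary genes (7 of 13), where 34706 of all 59305 spots were detected. The part of pituitary genes in these values was not tested.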

How the results depend on the processing

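No paired analysis was possible because the replicate numbers are positions along different axes of different mice. The sagittal count of 7 members fell to 4 without a detection filter and to 3 with slide as a block, within slide 4 and without fractions 1 and 11. Of all probes, 6857 of 55681 passed without the filter. In the fits with 3 members, 2142, 1950 and 3434 of 34186 passed, against 9666 in the main fit. Leaving out single fractions gave 3 to 7, with 3 without fraction 1 and 4 without fraction 7. Those fits were passed by 6491 to 9919 of all probes, by 6491 without fraction 1 and by 8036 without fraction 7. The coronal count of 8 was 5 with a spline of 3 degrees of freedom and 5 within slide 2, and 6 to 9 without single fractions. Of all probes, 20704 passed the main coronal fit, 20642 that spline, 7340 within slide 2 and 19136 to 21282 without single fractions. The horizontal count of 4 was 0 without a detection filter, with the weaker detection flag, with slide as a block, without slide 5 and for a linear trend, where 4, 4, 2, 0 and 603 of all probes passed. It was 9 after the normexp background correction and 8 with limma-trend, where 2574 and 2185 of all probes passed, and 0 to 4 without single fractions. Oxt, Ghrh and Trh passed the sagittal test in all 11 fits without 1 fraction, Avp in 10, Agrp in 8, Pmch in 5 and Gnrh1 in 3. Of the 30 highest fractions, 28 to 30 were kept under other scalings and corrections; Pmch moved to sagittal fraction 4 and Agrp to coronal fraction 8. The closest gene stayed the same for 8 members under 3 alternatives and for 3 with Spearman's rho. No direction turned. The cause of these changes was not tested. Values near background, as for Gnrh1, limit what these arrays can show, and the horizontal test has few fractions.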
